A study of Saccharomyces cerevisiae with 6 samples.

Results

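Yeast cells that had received CID 3528206, a compound known here only by its code, were compared directly with cells that had received rapamycin. The compared genes were all 5449 Saccharomyces cerevisiae genes named by a probe set of the array, with the highest-mean probe set standing for each gene, and probe sets for S. pombe and controls were left out. The series has 6 arrays in 3 groups of 2, and every array holds RNA of a haploid laboratory strain, given as BY4741 in the labels, grown in rich YPD medium. The compared arrays are the 2 that followed 20 µM CID 3528206 and the 2 that followed 200 nM rapamycin, each for 3 hours, and the 2 arrays of cells given 1% DMSO for 3 hours are set beside them. The molar doses are not matched, and no source used here tells if DMSO was present with either drug. The arrays of a group are described as duplicates without word of separate cultures, so every p-value below measures only the spread between these samples, which may be technical.

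Rapamycin binds the immunophilin Fpr1 and the pair inhibits TOR complex 1 (TORC1), a protein kinase complex that keeps yeast growing while nitrogen and carbon are plentiful. When TORC1 is inhibited, the GATA factors Gln3 and Gat1 switch on genes for poor nitrogen sources, Msn2 and Msn4 switch on stress genes, and genes for ribosomal proteins and ribosome assembly are turned down. The series sets the compound beside rapamycin, and the direct comparison asks at which genes the responses to the 2 agents differ.

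Values are log2 RMA levels, so a difference of 1 is 2-fold, and levels are compared between arrays for a gene, never between genes. Over the genes tested the CID 3528206 replicates differed from each other with a standard deviation of 0.267 log2 units, against 0.122 for the rapamycin replicates and 0.123 for the DMSO replicates. CID 3528206 replicate 1 stood apart in the gap between 3' and 5' control probe sets, with a mean of 1.69 log2 units over 7 genes, whereas the other 5 arrays lay between 0.91 and 1.14. With this gap as a covariate limma called 1888 genes, which held 1021 of the 1022 called without it, and of the 63 genes at 2-fold 49 were also among its 61. The labelled strain is a MATa strain that lacks HIS3, LEU2, MET17 and URA3, yet these 4 genes read 10.39 to 12.11 on the 6 arrays and 6 genes of alpha cells read 8.59 to 13.47. Of 8 genes of a cells, HMRA1 lay below the background of 4.38 set by S. pombe probe sets on all 6 arrays, at 2.61 to 3.23. The other 7 lay above that background and reached at most 7.897 after CID 3528206, 8.235 after rapamycin and 7.626 with DMSO. The 4 genes that the labelled strain lacks were thus well above background in all 3 groups, and what this means for the differences was not tested.

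The groups differed modestly at most genes. CID 3528206 minus rapamycin had a standard deviation of 0.318 log2 units across the 5449 genes and a median of -0.003, whereas CID 3528206 minus DMSO had a standard deviation of 0.593 and rapamycin minus DMSO one of 0.666. With limma and a Benjamini-Hochberg adjusted p under 0.05, 1022 genes were called, or 18.8% of those tested: 508 were higher after CID 3528206 (9.32%) and 514 lower (9.43%). At least 2-fold were 63 genes (1.16%), of which 25 were higher (0.459%) and 38 lower (0.697%). For all 1022 called genes the 2 CID 3528206 arrays lay on the same side of both rapamycin arrays, as they did for 3460 genes in all, or 63.5%. The plot of the difference against the level shows that the 2-fold genes spread over most of the range of levels.

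**Figure D1:**
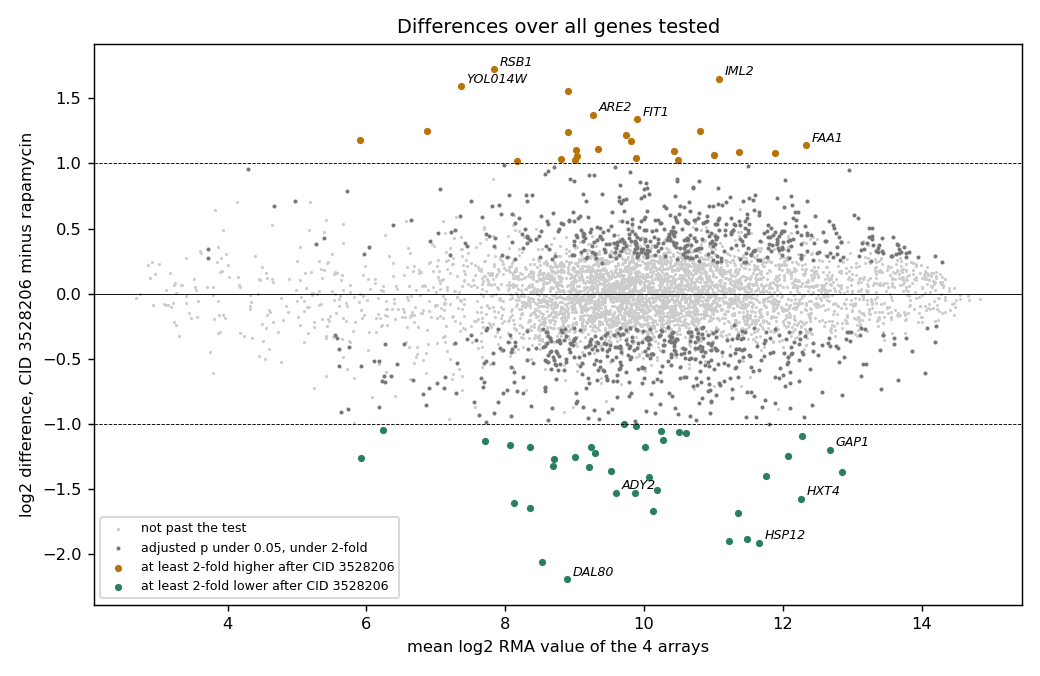
Difference between CID 3528206 and rapamycin (vertical axis, log2) against the mean level of the 4 arrays (horizontal axis, log2 RMA value), with 1 point per gene for 5449 genes. Coloured points are the 25 genes called at least 2-fold higher and the 38 called at least 2-fold lower, and dashed lines mark 2-fold; most genes lie close to 0.

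The number of calls depended on which arrays were in the fit. It was 1300 without CID 3528206 replicate 1 and 2646 without CID 3528206 replicate 2. It was 105 without rapamycin replicate 1, 96 without rapamycin replicate 2 and 397 without either DMSO array. The count of 2-fold genes was 61, 116, 55, 56 and 63 in the same 5 cases. In the same direction, 82 genes were called in each of the 6 fits that left out 1 array, and 51 of the 63 genes that differed 2-fold were among them. The 2 fits that left out a DMSO array are the same test as the fit of the 4 compared arrays alone, since 1 remaining DMSO array adds no spread. Among the 6 fits these 2 therefore count as 1 check. Likewise, 1 remaining CID 3528206 array adds no spread, so the fits without a CID 3528206 array took theirs from the rapamycin and DMSO replicates. Those replicates differed less, with standard deviations of 0.122 and 0.123 against 0.267 for CID 3528206. Counts and p-values without a CID 3528206 array, here and below, rest on that smaller spread and are no check of the calls. The plot of counts by setting shows the 2-fold counts beside all calls.

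**Figure D2:**
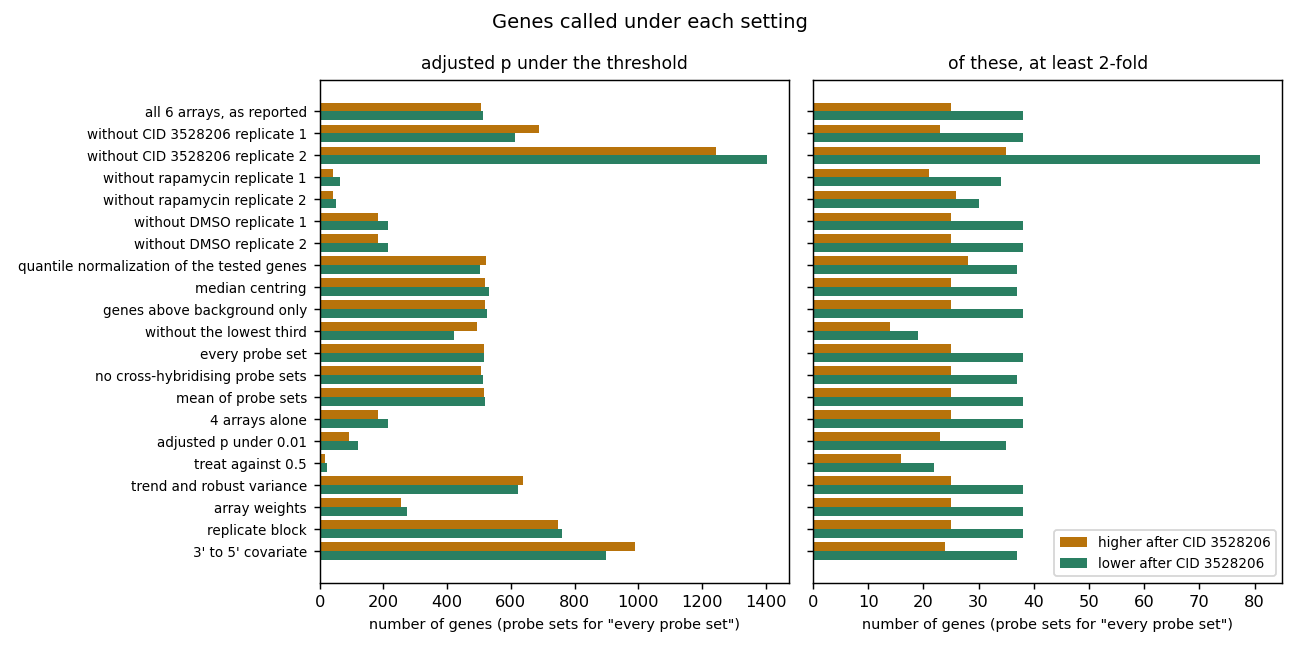
Number of genes called higher and lower after CID 3528206 than after rapamycin (horizontal axes) under each setting (vertical axis), for all calls on the left and for calls of at least 2-fold on the right. The fits without a rapamycin array made 105 and 96 calls in all against 1022 with all arrays, and the 2-fold counts moved less.

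The largest difference was in a gene that was lower after CID 3528206 than after rapamycin. DAL80, a GATA repressor that is itself induced when nitrogen is poor, had 7.58 and 8.02 after CID 3528206, 9.96 and 10.02 after rapamycin and 5.16 and 5.43 with DMSO. The groups did not overlap, and the CID 3528206 arrays lay between the others. The log2 difference from rapamycin was -2.19 ± 0.16 (n = 2 arrays each, limma adjusted p = 0.00259), with an SE from a spread pooled over all 3 groups. RGI2, a gene induced during respiratory growth, had 7.16 and 7.86 after CID 3528206, 9.56 and 9.57 after rapamycin and 5.96 and 6.09 with DMSO, a difference of -2.06 ± 0.21. For HSP12, which encodes a small membrane-associated stress protein, the order was another: CID 3528206 gave 10.43 and 10.98, against 12.44 and 12.78 after rapamycin and 10.95 and 10.63 with DMSO, so that CID 3528206 and DMSO overlapped and rapamycin stood above both. HXT7, a high-affinity glucose transporter, had 10.55 and 10.53 after CID 3528206, against 12.44 and 12.40 after rapamycin and 12.49 and 12.43 with DMSO. In this gene the rapamycin and DMSO arrays overlapped and only the CID 3528206 arrays were low, by 1.88 ± 0.07 log2 units relative to rapamycin, although its probe set can also hybridise the near-identical HXT6. HXT4, another glucose transporter, was also lowest after CID 3528206, at 11.45 and 11.51, against 13.03 and 13.08 after rapamycin and 12.76 and 12.76 with DMSO. At this gene the rapamycin arrays lay above DMSO, by 0.30 log2 units.

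The 15 genes with the largest deficits also held YKR075C, TMA10, ISF1, YNL194C, SFC1, ADY2, JEN1, ICL1, ECM13 and DAL5, with differences of -1.90 to -1.40. Of the 15, 11 were called in each fit that left out 1 array. HSP12, YKR075C, YNL194C and SFC1 were not: without rapamycin replicate 2 their limma adjusted p was 0.0517, 0.0832, 0.0584 and 0.109. The remaining 23 genes that were at least 2-fold lower, most of them chosen after their values were seen, were HSP26, ATO2, ATG39, LEE1, PUT4, ANS1, USV1, ALD6, ADH2, GAP1, MLS1, PUT1, KNH1, RCK1, RIM4, MTH1, ALD4, MIG1, YNR014W, GUT2, ZNF1, FMP16 and MDG1. Across the 38 genes the median difference from DMSO was 0.71 after CID 3528206 and 2.02 after rapamycin.

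Genes at least 2-fold higher after CID 3528206 than after rapamycin included transporters, lipid enzymes and genes of unknown function. RSB1, a membrane protein that moves sphingoid long-chain bases, had 8.87 and 8.54 after CID 3528206, against 6.94 and 7.03 after rapamycin and 8.89 and 8.75 with DMSO. The CID 3528206 and DMSO arrays overlapped and rapamycin was low, so the log2 difference of 1.72 ± 0.12 (limma adjusted p = 0.00259) lay beside a rapamycin deficit. IML2, which is needed to clear protein inclusion bodies, had 12.07 and 11.75 after CID 3528206, against 10.26 and 10.27 after rapamycin and 10.59 and 10.51 with DMSO. Here the CID 3528206 arrays were the high ones, with a difference of 1.65 ± 0.11. FAA1, a long-chain acyl-CoA synthetase, behaved likewise at 12.92 and 12.89 after CID 3528206, against 11.83 and 11.71 after rapamycin and 11.94 and 11.72 with DMSO. YOL014W, of unknown function, had 8.25 and 8.06 after CID 3528206, against 6.46 and 6.68 after rapamycin and 11.26 and 10.99 with DMSO. Both agents lay below DMSO at this gene, and rapamycin lay lower.

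The other 11 of the 15 genes with the largest excess were YMR317W, ARE2, FIT1, YML131W, YMR230W-A, HMS2, EEB1, YIL060W, ARO9, KAP122 and PRM9, with differences of 1.56 to 1.11. Among the 15, only KAP122, a nuclear import receptor, was not called in each fit that left out 1 array (limma adjusted p = 0.0614 without rapamycin replicate 2). The remaining 10 were ARE1, PDR10, ARN2, FET4, AQY2, MKC7, FCY21, YLL053C, OPT2 and YDL241W, of which AQY2 and YLL053C are neighbouring reading frames of a split aquaporin gene in the S288C reference strain. Of the 25 genes, 7 carry only a systematic name, against 3 of the 38 lower ones and 499 of all 5449. The median difference from DMSO over the 25 was 0.46 after CID 3528206 and -0.75 after rapamycin. The plot of levels by array sets the 3 groups side by side for the 15 genes in each direction.

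**Figure D3:**
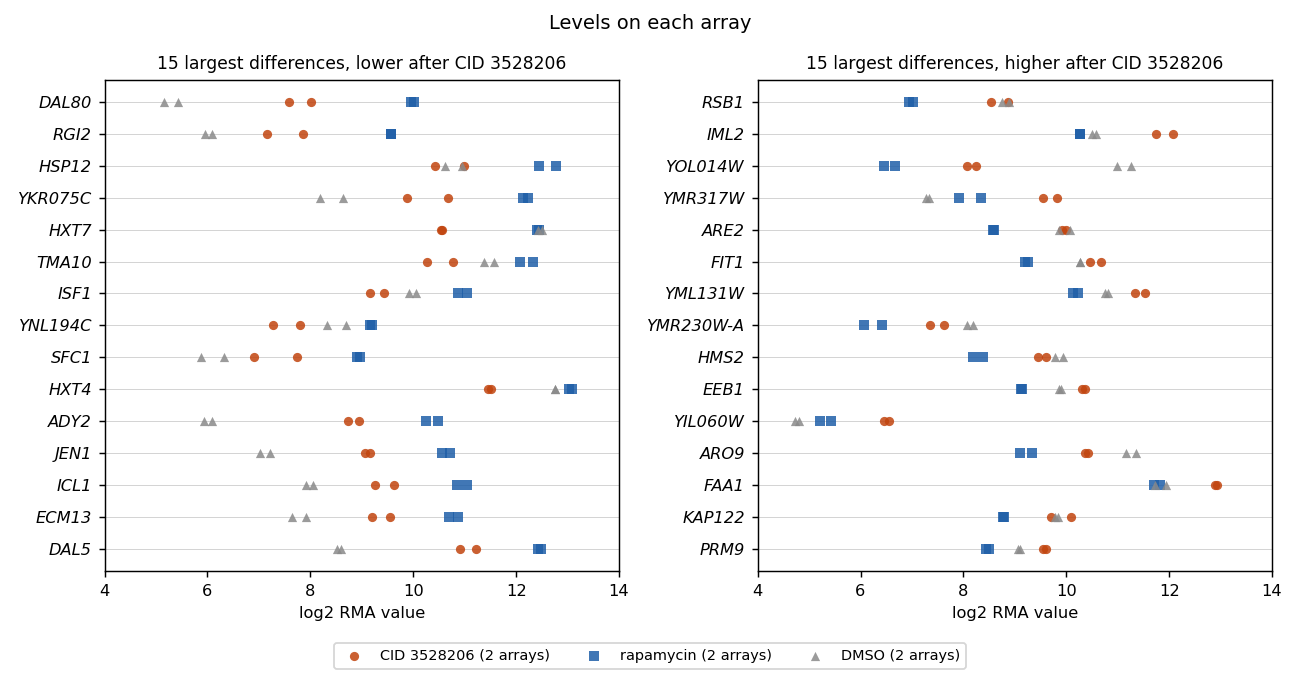
Log2 RMA value (horizontal axis) on each of the 6 arrays for the 15 genes with the largest negative difference (left) and the 15 with the largest positive difference (right), CID 3528206 minus rapamycin. Circles are CID 3528206, squares rapamycin and triangles DMSO, with 1 symbol per array; DAL80 has CID 3528206 between the other groups, and HXT7 and HXT4 have CID 3528206 below both.

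Most genes for the uptake of poor nitrogen sources were lower after CID 3528206 than after rapamycin. Of 12 permeases for ammonium, allantoin, urea, proline and GABA, 9 were lower and the other 3 did not pass, with a median difference of -0.52. The median of these 12 over DMSO was 2.38 after CID 3528206 and 3.14 after rapamycin, 2 values that share the DMSO arrays. GAP1, the general amino acid permease, had 12.16 and 12.00 after CID 3528206, against 13.31 and 13.25 after rapamycin and 8.19 and 8.17 with DMSO. Both agents were far above DMSO, and CID 3528206 was below rapamycin by 1.20 ± 0.08 log2 units (limma adjusted p = 0.00256). PUT4, the proline permease, had 8.02 and 8.12 after CID 3528206, against 9.34 and 9.34 after rapamycin and 5.78 and 5.86 with DMSO, a difference of -1.27 ± 0.07. DAL5, the allantoate permease, had 11.21 and 10.90 after CID 3528206, against 12.43 and 12.48 after rapamycin and 8.59 and 8.51 with DMSO. The ammonium permease MEP2 was nearer to equal, with 13.46 and 13.40 after CID 3528206, against 13.78 and 13.77 after rapamycin and 8.04 and 8.15 with DMSO, a difference of -0.34 ± 0.07 (limma adjusted p = 0.0263, and 0.17 without rapamycin replicate 2). GAP1, PUT4 and DAL5 were called in every fit that left out 1 array. Of the 9 lower permeases, limma's threshold was still passed by 3 without either rapamycin array and by 6 without either DMSO array, and by 9 without CID 3528206 replicate 1.

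The enzymes behind these permeases divided by pathway. Of 5 genes of allantoin and urea breakdown 4 were lower, with a median of -0.48: the allantoicase gene DAL2 by 0.97 ± 0.07, the ureidoglycolate lyase gene DAL3 by 0.73 ± 0.08, DAL7 by 0.48 ± 0.10 and DCG1 by 0.34 ± 0.08, while DAL1 at -0.44 ± 0.13 did not pass (limma adjusted p = 0.0651, and 0.00199 without CID 3528206 replicate 2). Without either rapamycin array DAL2 alone was called, and 3 of the 5 were called without either DMSO array. Of 8 genes of proline, GABA and arginine use, the proline oxidase gene PUT1 was lower, by 1.18 ± 0.09, and 4 were higher. The higher ones were ASP1, cytosolic asparaginase, at 0.63 ± 0.09, CAR2, ornithine aminotransferase, at 0.57 ± 0.08, UGA2 at 0.45 ± 0.09 and UGA1, GABA transaminase, at 0.36 ± 0.07. PUT1 was at 9.33 and 9.53 after CID 3528206, against 10.55 and 10.66 after rapamycin and 8.40 and 8.43 with DMSO. UGA2 ran the other way, with 12.16 and 12.01 after CID 3528206, against 11.63 and 11.65 after rapamycin and 10.21 and 10.06 with DMSO. PUT1 passed limma's threshold in every fit that left out 1 array, whereas none of the 4 higher genes did without either rapamycin array (all 4 had an unadjusted p under 0.05 there) and 2 did without either DMSO array.

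Among 24 amino acid permeases 6 were lower and 5 higher, with a median of -0.01. All called members are named, several after their values were seen: the lower ones were GAP1, PUT4, the GABA permease UGA4, the arginine permease CAN1, AGP1 and DIP5. The higher ones were BAP3, TAT1, SAM3, MUP3 and BAP2. BAP3, which imports branched-chain amino acids, had 12.01 and 11.85 after CID 3528206, against 11.22 and 11.20 after rapamycin and 11.93 and 11.97 with DMSO. CID 3528206 overlapped DMSO at this gene, and the difference from rapamycin was 0.72 ± 0.08 (limma adjusted p = 0.00495, and 0.0615 without rapamycin replicate 2). TAT1, a tyrosine and branched-chain permease, had 11.15 and 11.06 after CID 3528206, against 10.46 and 10.51 after rapamycin and 11.18 and 11.21 with DMSO. Its difference from rapamycin was 0.62 ± 0.07 (limma adjusted p = 0.00496), a call that depended on having both rapamycin arrays. CID 3528206 lay just below DMSO, by 0.09 ± 0.07, which did not pass (limma adjusted p = 0.331). Without either rapamycin array only GAP1 and PUT4 were called in this list, whereas 11 genes had an unadjusted p under 0.05; 7 were called without either DMSO array. Of 10 genes for peptide and glutathione uptake and breakdown, DAL5, CUP9 and ECM38 were lower and OPT2, OPT1 and DUG2 higher. Except for DAL5, which is also in the permease list above, these calls depended on having both rapamycin arrays. OPT1 differed by 0.76 ± 0.20 (limma adjusted p = 0.048), by 0.43 without CID 3528206 replicate 1 and by 1.09 without CID 3528206 replicate 2.

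Genes of the TOR pathway itself gave few calls. Of 21 genes for TORC1 subunits and upstream regulators, limma called 0, with 3 at an unadjusted p under 0.05 and a median of 0.02. Without CID 3528206 replicate 2, 7 of the 21 were called. Of 21 TORC1 effector kinases and phosphatases, NPR1, a kinase that controls permeases, was lower by 0.43 ± 0.08 (limma adjusted p = 0.0186, and 0.137 without rapamycin replicate 1), and 5 of the 21 were lower without CID 3528206 replicate 1. Of 9 genes for GATA factors and their regulators, the repressors DAL80 and GZF3 were lower. GZF3 had 9.76 and 10.03 after CID 3528206, against 10.34 and 10.37 after rapamycin and 8.73 and 8.84 with DMSO, a difference of -0.47 ± 0.10 (limma adjusted p = 0.0316, and 0.184 without rapamycin replicate 2). The activator genes did not pass: GAT1 differed by -0.43 ± 0.17, with a 95% interval of -0.85 to -0.01, and GLN3 by -0.07 ± 0.07, with an interval of -0.25 to 0.11. The value of GAT1 rested on both CID 3528206 arrays: it was -0.16 (limma adjusted p = 0.215) without replicate 1 and -0.70 (0.00225) without replicate 2.

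Genes for growth on carbon sources other than glucose formed the list with the lowest median. Of 22 genes of gluconeogenesis, the glyoxylate cycle and acetate use, 16 were lower after CID 3528206 than after rapamycin, 8 of them at least 2-fold, and the median difference was -0.82. Their median over DMSO was 1.19 after CID 3528206 and 1.86 after rapamycin. ADY2, the acetate transporter, had 8.73 and 8.94 after CID 3528206, against 10.48 and 10.25 after rapamycin and 5.92 and 6.08 with DMSO. JEN1, the lactate and pyruvate permease, had 9.06 and 9.16 after CID 3528206, against 10.71 and 10.56 after rapamycin and 7.02 and 7.22 with DMSO. In both, CID 3528206 lay between the other groups without overlap, and the difference from rapamycin was -1.53 ± 0.12 for ADY2 and -1.53 ± 0.10 for JEN1 (limma adjusted p = 0.00259 and 0.00256). ICL1, isocitrate lyase of the glyoxylate cycle, had 9.26 and 9.62 after CID 3528206, against 11.04 and 10.85 after rapamycin and 7.91 and 8.05 with DMSO. SFC1, the mitochondrial succinate-fumarate carrier, had 6.91 and 7.75 after CID 3528206, against 8.90 and 8.96 after rapamycin and 5.88 and 6.32 with DMSO. The CID 3528206 replicates of SFC1 lay far apart, and its limma adjusted p was 0.016, or 0.109 without rapamycin replicate 2. Of 2 transcription factor genes of the pathway, chosen after their values were seen, CAT8 was lower by 0.76 ± 0.10, and ADR1 differed by 0.11 ± 0.08, which did not pass. The number called lower was 9 without either rapamycin array, 15 without either DMSO array and 16 without CID 3528206 replicate 1, a fit that also called 2 genes of the list higher.

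At several genes of glucose uptake and use CID 3528206 lay below both other groups. Of 21 hexose transporters and their sensors and regulators, 5 were lower (HXT7, HXT4, MTH1, HXT5 and HXT2) and the other 16 did not pass, with a median of -0.16. HXT5, a transporter expressed at slow growth, was instead raised over DMSO by both agents, with 8.73 and 8.63 after CID 3528206, against 9.55 and 9.54 after rapamycin and 7.05 and 6.79 with DMSO. Its limma adjusted p between CID 3528206 and rapamycin was 0.00576, a call lost without rapamycin replicate 2. HXT2 had 12.10 and 12.27 after CID 3528206, against 12.87 and 12.99 after rapamycin and 12.41 and 12.54 with DMSO. HXK1, a hexokinase isozyme, had 11.86 and 11.80 after CID 3528206, against 12.73 and 12.82 after rapamycin and 12.98 and 12.89 with DMSO, so that CID 3528206 was below both. ALD6, cytosolic acetaldehyde dehydrogenase, shared that arrangement, with 11.29 and 11.61 after CID 3528206, against 12.82 and 12.56 after rapamycin and 12.79 and 12.64 with DMSO. Of 29 regulators of glucose repression and protein kinase A 5 were lower (17.2%, against 9.43% over all genes). Among them were the repressor genes MIG1, by 1.07 ± 0.15, and MIG2, by 0.83 ± 0.18. Without rapamycin replicate 2 the limma adjusted p of MIG1 was 0.0831, and without rapamycin replicate 1 that of MIG2 was 0.157. HXT7, HXT4, HXK1 and ALD6 were called in every fit that left out 1 array.

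Of 85 genes of the general stress response 45 were lower and 3 higher, with a median of -0.45 and 79 of the 85 below 0. Their median against DMSO was -0.25 after CID 3528206 and 0.23 after rapamycin, so the 2 medians lay on opposite sides of DMSO. TMA10, which encodes a ribosome-associated protein, had 10.26 and 10.76 after CID 3528206, against 12.32 and 12.06 after rapamycin and 11.57 and 11.37 with DMSO. HSP26, a small heat shock protein gene, had 12.02 and 12.30 after CID 3528206, against 13.56 and 13.51 after rapamycin and 11.65 and 11.38 with DMSO. SSA4, an inducible Hsp70 gene, had 10.08 and 9.99 after CID 3528206, against 10.95 and 10.96 after rapamycin and 10.19 and 10.14 with DMSO. TMA10 was below DMSO after CID 3528206 and above it after rapamycin, and SSA4 was near DMSO after CID 3528206 and above it after rapamycin. All 3 genes were called in each fit that left out 1 array. The catalase gene CTT1 was lower by 0.51 ± 0.11 (limma adjusted p = 0.0298, and 0.178 without rapamycin replicate 2), and below DMSO after both agents. The 3 higher members were YPR1, PRB1 and UGA1, which encode a reductase, a vacuolar protease and GABA transaminase, and DDR2 did not pass (-0.21 ± 0.09, 95% interval -0.44 to 0.02). The count of 45 became 12 without rapamycin replicate 1, 8 without rapamycin replicate 2 and 28 without either DMSO array, and it was 58 without CID 3528206 replicate 1.

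Of 17 late stationary phase and hydrophilin genes, several of which are also in the stress list, 13 were lower, with a median of -0.65 (2 without rapamycin replicate 1, 1 without rapamycin replicate 2 and 6 without either DMSO array). YGP1, a secreted glycoprotein gene, had 13.10 and 12.99 after CID 3528206, against 13.81 and 13.75 after rapamycin and 13.02 and 13.06 with DMSO. CID 3528206 and DMSO overlapped there. The limma adjusted p between CID 3528206 and rapamycin was 0.00411, a call lost without rapamycin replicate 1. Of 40 cytosolic chaperone and heat shock genes 12 were lower, with a median of -0.09 close to that of all genes (3 without rapamycin replicate 1, 2 without rapamycin replicate 2 and 7 without either DMSO array). Of 7 trehalose genes limma called 0, with 1 at an unadjusted p under 0.05 and a median of -0.04. That count rested on both CID 3528206 arrays: without replicate 1, 1 gene was lower and the median was -0.21, and without replicate 2, 4 were higher and the median was 0.33.

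Of 40 genes for respiratory complexes and the ATP synthase 18 were lower after CID 3528206 by limma's test and 22 did not pass. All 40 had a difference below 0, with a median of -0.33. The list's median against DMSO was 0.16 after CID 3528206 and 0.46 after rapamycin. QCR10, a subunit of complex III, had 11.64 and 11.70 after CID 3528206, against 12.31 and 12.17 after rapamycin and 11.53 and 11.52 with DMSO, a difference of -0.57 ± 0.08. COX4, a subunit of complex IV, had 11.69 and 11.90 after CID 3528206, against 12.27 and 12.40 after rapamycin and 11.68 and 11.74 with DMSO. At both genes CID 3528206 lay near DMSO and rapamycin above it. Between CID 3528206 and rapamycin the limma adjusted p was 0.00858 and 0.017, and both calls depended on having both rapamycin arrays. The succinate dehydrogenase genes SDH1 and SDH2 were among 5 of 20 TCA cycle genes that were lower, by 0.49 ± 0.08 and 0.64 ± 0.11. Of 71 mitochondrial ribosomal protein genes 10 were lower (14.1%, against 9.43% over all genes), with a median of -0.19 and 64 below 0. Without either rapamycin array limma called 0 of the 40 respiratory genes (20 without replicate 1 and 19 without replicate 2 had an unadjusted p under 0.05), 2 without either DMSO array and 32 without CID 3528206 replicate 2. For the mitochondrial ribosome the calls were 9 without CID 3528206 replicate 1, 44 without CID 3528206 replicate 2 and 0 without any 1 array of the other groups, where 14 and 10 genes had an unadjusted p under 0.05 without rapamycin replicates 1 and 2.

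Cytosolic ribosomal protein genes gave calls in the other direction. Of 129 measured, 36 were higher after CID 3528206 than after rapamycin, 126 were above 0 and the median difference was 0.20. Against DMSO the list's median was -0.14 after CID 3528206 and -0.35 after rapamycin. RPL9A, a large-subunit protein gene, had 13.36 and 13.48 after CID 3528206, against 12.54 and 12.41 after rapamycin and 13.71 and 13.67 with DMSO, a difference of 0.95 ± 0.08 (limma adjusted p = 0.00277). RPS22A, of the small subunit, had 13.37 and 13.30 after CID 3528206, against 12.86 and 12.59 after rapamycin and 13.61 and 13.57 with DMSO. Both lay between rapamycin and DMSO and nearer to DMSO, and RPS22A had a limma adjusted p of 0.0149, or 0.0953 without rapamycin replicate 2. RPL3 did not pass, at 0.15 ± 0.07 with a 95% interval of -0.02 to 0.32. The count of 36 was 2 without rapamycin replicate 1, 1 without rapamycin replicate 2, 8 without either DMSO array and 64 without CID 3528206 replicate 1. RPL9A was called in all of these fits, and paralogous ribosomal protein genes are so alike that their probe sets may share signal.

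The other translation lists were mixed. Of 20 aminoacyl-tRNA synthetase genes 6 were higher and all 20 were above 0, with a median of 0.22; CDC60, the leucyl-tRNA synthetase, was at 0.56 ± 0.13 and MES1, the methionyl-tRNA synthetase, at 0.47 ± 0.09. Of 38 translation factor genes 6 were higher (15.8%, against 9.32% over all genes), among them the initiation factor genes GCD1, at 0.54 ± 0.09, and ANB1, at 0.59 ± 0.09. Of 143 ribosome biogenesis genes only 5 were higher and 4 lower, below the shares over all genes, with a median of -0.09, and 57 of them were lower without CID 3528206 replicate 2. KRE33, an rRNA acetyltransferase, had 11.71 and 11.36 after CID 3528206, against 10.86 and 10.80 after rapamycin and 11.15 and 11.13 with DMSO. Outside these 3 lists, the only call among 36 genes of RNA polymerases I and III was RRN3, which recruits RNA polymerase I. That share, 2.78% lower, was below the 9.43% over all genes. RRN3 was lower by 0.57 ± 0.11, at 9.67 and 9.59 after CID 3528206, against 10.15 and 10.26 after rapamycin and 8.81 and 9.09 with DMSO. Without either rapamycin array limma called 0 genes in these 3 lists, with 8 and 3 synthetase genes and 6 and 7 translation factor genes at an unadjusted p under 0.05 without replicates 1 and 2, and 13 and 12 biogenesis genes. Without rapamycin replicate 2 the adjusted p of KRE33 was 0.119 and that of RRN3 0.147.

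**Figure D4:**
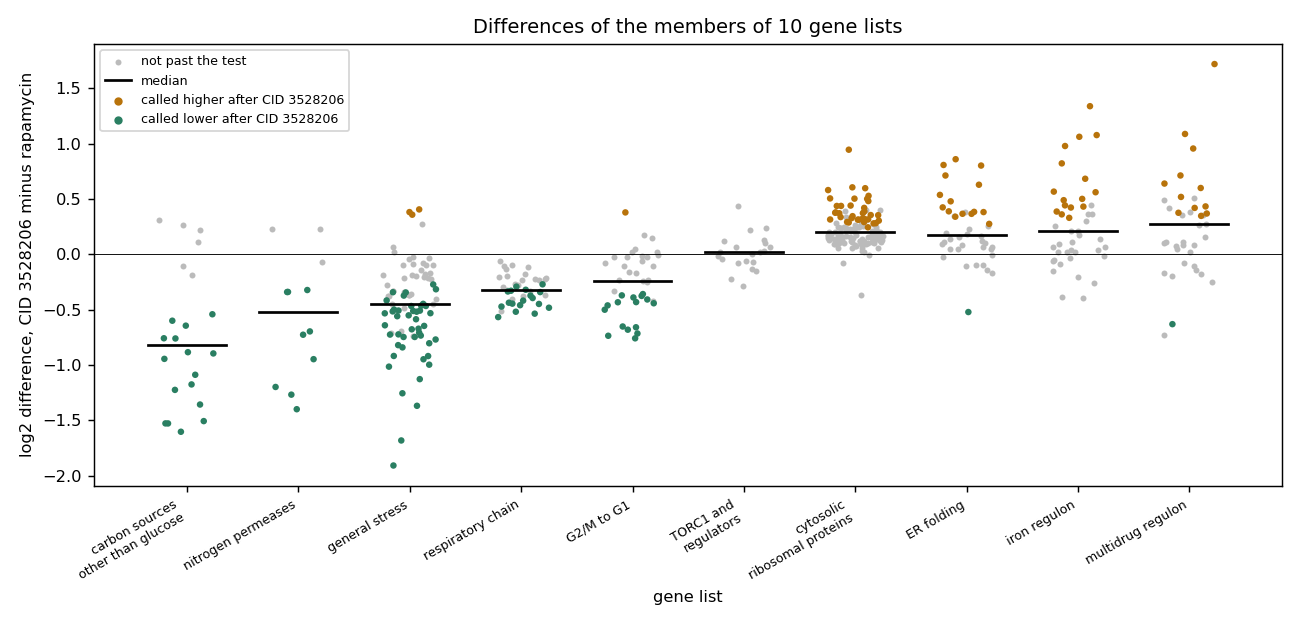
Log2 difference between CID 3528206 and rapamycin (vertical axis) for each member of 10 gene lists (horizontal axis), with coloured points for called genes and a bar at the list's median. The list for carbon sources other than glucose has a median of -0.82 and the multidrug list one of 0.27, and no member of the TORC1 list was called.

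Of 44 genes of the iron regulon 16 were higher after CID 3528206 than after rapamycin, 3 of them at least 2-fold, and the other 28 did not pass; the median was 0.21. FIT1, a cell wall mannoprotein that holds siderophore iron, had 10.68 and 10.47 after CID 3528206, against 9.26 and 9.21 after rapamycin and 10.27 and 10.27 with DMSO. ARN2, a siderophore transporter, had 12.58 and 12.27 after CID 3528206, against 11.36 and 11.33 after rapamycin and 11.16 and 11.13 with DMSO, and its relative ARN1 had 12.09 and 11.90, against 11.02 and 11.01 after rapamycin and 10.57 and 10.43 with DMSO. For FIT1 rapamycin was below DMSO, whereas for ARN2 and ARN1 CID 3528206 was the high group. These differences were 1.34 ± 0.09, 1.08 ± 0.11 and 0.98 ± 0.09 (limma adjusted p = 0.00256, 0.00413 and 0.00348), and each was called in every fit that left out 1 array. FIT2 differed by 0.11 ± 0.08, and the high-affinity uptake genes FET3 and FTR1, chosen after their values were seen, by 0.17 ± 0.08 and 0.06 ± 0.09, and these did not pass. The 16 calls became 4 without either rapamycin array and 10 without either DMSO array. Of 20 zinc and copper genes 5 were higher and 3 lower, and the lower ones were CUP1-1, a copper metallothionein at -0.61 ± 0.07, CTR1, the copper importer at -0.46 ± 0.10, and IZH1; none of the 8 was called without either rapamycin array, though all 8 had an unadjusted p under 0.05.

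Of 38 genes of the multidrug resistance regulon 12 were higher and 1 lower, with a median of 0.27, against a list median over DMSO of 0.21 after CID 3528206 and -0.01 after rapamycin. PDR10, an ABC transporter gene, had 12.05 and 11.77 after CID 3528206, against 10.82 and 10.81 after rapamycin and 10.18 and 10.13 with DMSO, a difference of 1.09 ± 0.10 (limma adjusted p = 0.00352). PDR5, the main drug efflux pump, had 12.79 and 12.62 after CID 3528206, against 11.99 and 12.00 after rapamycin and 12.58 and 12.48 with DMSO. CID 3528206 was above both other groups at PDR10, while at PDR5 it was just above DMSO; SNQ2 did not pass, at 0.35 ± 0.10 (limma adjusted p = 0.0508, and 0.00493 without CID 3528206 replicate 2). NCE102, an eisosome protein gene, was the lower member, by 0.63 ± 0.07. Without rapamycin replicates 1 and 2, 2 and 3 of the 12 were called, and 6 were without either DMSO array; the limma adjusted p of PDR5 was at most 0.0653 and that of NCE102 at most 0.0614 over these fits. Without CID 3528206 replicate 1 the list's median was 0.12, with 12 genes higher, and without CID 3528206 replicate 2 the count was 20.

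Of 34 genes of ergosterol synthesis, esterification and uptake 8 were higher and 1 lower, with a median of 0.11. ARE2 and ARE1, the acyltransferases that turn sterols into storage esters, led the list. ARE2 had 9.92 and 9.99 after CID 3528206, against 8.60 and 8.57 after rapamycin and 10.07 and 9.85 with DMSO. ARE1 had 11.02 and 10.94 after CID 3528206, against 9.88 and 9.89 after rapamycin and 9.98 and 10.05 with DMSO. The paralogs differed in their arrangement: ARE2 was low after rapamycin alone and ARE1 was high after CID 3528206 alone, with differences of 1.37 ± 0.09 and 1.10 ± 0.07 (limma adjusted p = 0.00259 and 0.00256), both called in every fit that left out 1 array. ERG11, the target of azole drugs, did not pass, at 0.11 ± 0.07 with a 95% interval of -0.05 to 0.27, and ERG28 was lower by 0.35 ± 0.07. The list's 8 calls were 2 without either rapamycin array, 5 without either DMSO array and 13 without CID 3528206 replicate 2. Besides FAA1, the acyl-CoA synthetase gene FAA3 was higher, with 10.45 and 10.45 after CID 3528206, against 9.67 and 9.61 after rapamycin and 10.18 and 10.16 with DMSO. Their list, of 42 genes of peroxisomes and fatty acid oxidation, did not rise as a whole. It had 4 genes higher (9.52%) and 7 lower (16.7%), with a median of -0.06. PEX21 led the lower ones at -0.84 ± 0.17, and the lower calls depended on having both rapamycin arrays.

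Of 42 genes for folding and glycosylation in the endoplasmic reticulum 15 were higher after CID 3528206 and 1, ERV2, lower, with a median of 0.17. The list's median against DMSO was -0.05 after CID 3528206 and -0.27 after rapamycin. PMT3, a protein O-mannosyltransferase, had 10.57 and 10.16 after CID 3528206, against 9.47 and 9.54 after rapamycin and 10.26 and 10.09 with DMSO. EUG1, a protein disulfide isomerase, had 11.64 and 11.30 after CID 3528206, against 10.77 and 10.55 after rapamycin and 11.26 and 11.11 with DMSO. The CID 3528206 arrays overlapped DMSO at PMT3 and lay above it at EUG1, and the rapamycin arrays lay below DMSO at both. The differences between CID 3528206 and rapamycin were 0.86 ± 0.14 and 0.81 ± 0.14 (limma adjusted p = 0.015 and 0.0157). Both calls depended on having both rapamycin arrays. Neither gene passed between CID 3528206 and DMSO (limma adjusted p = 0.299 and 0.133). Without rapamycin replicate 1 limma called 1 gene of the list, without rapamycin replicate 2 it called 0, although 15 had an unadjusted p under 0.05 and were higher, and without either DMSO array 6.

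Nucleotide, one-carbon and phosphate genes held further differences in both directions. Of 27 purine genes 8 were higher and 1, HPT1, lower. ADE17, of de novo purine synthesis, had 12.52 and 12.06 after CID 3528206, against 11.48 and 11.62 after rapamycin and 14.22 and 14.10 with DMSO. SHM2, cytosolic serine hydroxymethyltransferase and one of 6 higher genes among 22 for glycine cleavage and folate, had 11.94 and 12.02 after CID 3528206, against 11.14 and 11.31 after rapamycin and 14.06 and 14.02 with DMSO. Both agents were well below DMSO at ADE17 and SHM2, and CID 3528206 was above rapamycin by 0.74 ± 0.15 and 0.75 ± 0.08 (limma adjusted p = 0.026 and 0.00474, and 0.153 and 0.0506 without rapamycin replicate 1). The folate list also held 3 lower genes, AGX1, of glycine synthesis, at -0.67 ± 0.09, SER3, of serine synthesis, at -0.63 ± 0.12, and DFR1. Without rapamycin replicate 2 the limma adjusted p of AGX1 was 0.0918, and without rapamycin replicate 1 that of SER3 was 0.135. GCV1, of the glycine cleavage complex, did not pass between the drugs, with 9.33 and 9.44 after CID 3528206, against 9.20 and 9.42 after rapamycin and 12.93 and 12.88 with DMSO, with a 95% interval for the difference between the agents of -0.16 to 0.31. Of 30 phosphate genes 8 were higher, led by GIT1, a glycerophosphoinositol transporter at 0.99 ± 0.14, and PHO5, the secreted acid phosphatase at 0.87 ± 0.09. PHO5 had 12.50 and 12.43 after CID 3528206, against 11.53 and 11.66 after rapamycin and 12.09 and 12.23 with DMSO, and PHO84, the phosphate transporter, did not pass at -0.09 ± 0.07. Without either rapamycin array limma called 0 purine genes (8 and 11 had an unadjusted p under 0.05 without replicates 1 and 2), while 3 were called without either DMSO array; the phosphate count was 1, 3 and 3 in these cases and that of the higher folate genes 0, 1 and 4.

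Amino acid synthesis differed at scattered genes. Of 33 genes for branched-chain and aromatic amino acids 6 were higher (18.2%, against 9.32% over all genes). Among them was ARO9, the aromatic aminotransferase, with 10.36 and 10.43 after CID 3528206, against 9.11 and 9.33 after rapamycin and 11.36 and 11.17 with DMSO. LEU9, an isozyme of leucine synthesis, had 10.09 and 10.05 after CID 3528206, against 9.20 and 9.26 after rapamycin and 11.39 and 11.47 with DMSO. Both genes lay below DMSO after each agent, lower after rapamycin, and both were called in every fit that left out 1 array. The regulator gene GCN4 was lower by 0.27 ± 0.06 (limma adjusted p = 0.0349), a call that depended on rapamycin replicate 2. It had 13.95 and 13.95 after CID 3528206, against 14.21 and 14.21 after rapamycin and 13.73 and 13.75 with DMSO. In arginine, lysine and histidine synthesis 2 of 26 genes were lower and 2 higher. These shares of 7.69% each were below those over all genes, 9.43% lower and 9.32% higher. ARG4 and ARG1 were the lower ones, by 0.67 ± 0.09 and 0.52 ± 0.06, and ARG2 and LYS12 the higher ones. Sulfur amino acid synthesis had 5 of 35 genes higher (14.3%) and 2 lower (5.71%), with a median of -0.03. SUL1, a sulfate permease, had 6.13 and 6.10 after CID 3528206, against 5.30 and 5.34 after rapamycin and 4.44 and 4.46 with DMSO. Its difference between the agents was 0.79 ± 0.06, called in every fit that left out 1 array. The DMSO values of SUL1 lay close to the background of 4.38.

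Of 39 genes that peak from G2/M to early G1 or act in cytokinesis, 16 were lower after CID 3528206 and 1, FKH2, higher, with a median of -0.24. Against DMSO the list's median was -0.11 after CID 3528206 and 0.19 after rapamycin. SIC1, an inhibitor of the cyclin-dependent kinase, had 9.25 and 9.61 after CID 3528206, against 10.15 and 10.22 after rapamycin and 10.20 and 10.25 with DMSO. HOF1, a cytokinesis protein gene, had 7.92 and 7.41 after CID 3528206, against 8.49 and 8.31 after rapamycin and 8.65 and 8.61 with DMSO. CID 3528206 was below both other groups at SIC1 and HOF1, by 0.76 ± 0.12 and 0.74 ± 0.17 relative to rapamycin (limma adjusted p = 0.0137 and 0.033, and 0.105 and 0.175 when the rapamycin array that mattered most, replicate 2 for SIC1 and replicate 1 for HOF1, was left out). Of 49 genes of G1/S and DNA replication 7 were higher (14.3%, against 9.32% over all genes) and 42 above 0, with a median of 0.16. CDC9, DNA ligase I, had 9.41 and 9.44 after CID 3528206, against 8.53 and 8.59 after rapamycin and 9.77 and 9.65 with DMSO, and was called in every fit that left out 1 array. All 9 histone genes lay below 0 and 3 were lower, HHT1 by 0.49 ± 0.09. Of the 16 lower genes of the first list 1 was called without either rapamycin array (16 and 17 had an unadjusted p under 0.05 without replicates 1 and 2) and 6 without either DMSO array, and 13 and 18 of the 49 replication genes were higher without CID 3528206 replicate 1 and 2, against 1 without any 1 array of the other groups.

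Of 34 pheromone response genes 8 were lower after CID 3528206, led by TEC1 at -0.69 ± 0.09, and 26 did not pass; without either rapamycin array limma called 0, with 8 and 7 at an unadjusted p under 0.05 without replicates 1 and 2, and 1 without either DMSO array. MF(ALPHA)2, an alpha-factor gene, had 9.01 and 8.59 after CID 3528206, against 9.55 and 9.49 after rapamycin and 12.36 and 12.57 with DMSO, so both agents lay far below DMSO. Of 32 autophagy genes 8 were lower and ATG18 higher. ATG8, which encodes the ubiquitin-like protein of the autophagosome membrane, had 10.55 and 10.93 after CID 3528206, against 11.45 and 11.43 after rapamycin and 10.85 and 10.86 with DMSO, a difference of -0.70 ± 0.12 (limma adjusted p = 0.0169, and 0.113 without rapamycin replicate 2). Of 49 redox and antioxidant genes 9 were lower (18.4%, against 9.43% over all genes) and 5 higher (10.2%, near the 9.32% over all genes). The higher ones included the glutathione synthesis genes GSH1, at 0.48 ± 0.09, and GSH2, at 0.54 ± 0.07. Both lay below DMSO after each agent: GSH1 by 0.54 after CID 3528206 and 1.01 after rapamycin, GSH2 by 0.14 and 0.68. Without either rapamycin array limma called 0 autophagy genes, with 10 at an unadjusted p under 0.05 without either replicate, and at most 1 redox gene.

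Some genes that differed greatly between drug and DMSO did not pass between the drugs. NCA3, a member of the SUN family of cell wall proteins, had 12.16 and 12.24 after CID 3528206, against 12.10 and 12.18 after rapamycin and 8.04 and 8.20 with DMSO. YAT2, a carnitine acetyltransferase, had 11.87 and 11.88 after CID 3528206, against 11.81 and 11.91 after rapamycin and 7.72 and 7.77 with DMSO. The drug arrays overlapped at both genes, and the 95% intervals of the difference were -0.14 to 0.27 for NCA3 and -0.16 to 0.18 for YAT2. GDH1 and GLT1, of glutamate synthesis, had intervals of -0.18 to 0.13 and -0.28 to 0.25, and the drug arrays overlapped at GLT1 but not at GDH1. CRC1, the mitochondrial carnitine carrier, differed by -0.21 ± 0.11 without overlap and did not pass, but without CID 3528206 replicate 2 the difference was -0.38 (limma adjusted p = 0.00745) and without replicate 1 it was -0.05. In contrast YAT1, an outer mitochondrial carnitine acetyltransferase, was higher by 0.61 ± 0.10 and the peroxisomal and mitochondrial CAT2 lower by 0.64 ± 0.07 (limma adjusted p = 0.0136 and 0.00457, and 0.106 and 0.0569 without rapamycin replicates 1 and 2). The plot of list shares places all lists of at least 10 genes beside the share over all genes.

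**Figure D5:**
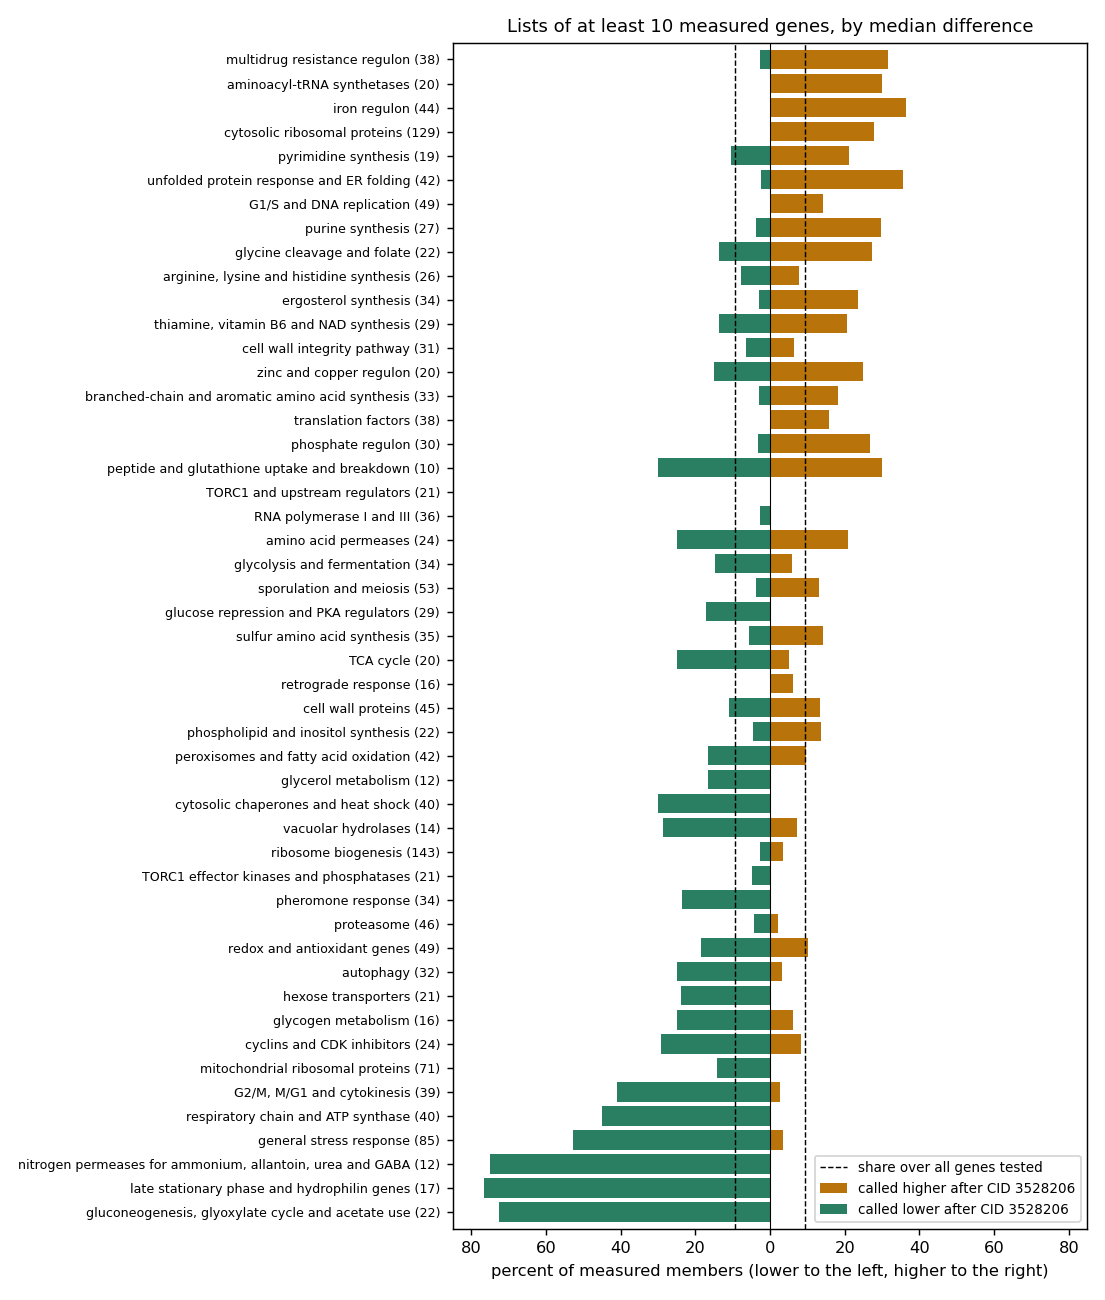
Percent of the measured members of each list (number in brackets) called higher (right) and lower (left) after CID 3528206 than after rapamycin, ordered by the list's median difference, with dashed lines at the shares over all 5449 genes, 9.32% and 9.43%. Carbon, stationary phase, nitrogen permease and stress lists have over 50% of their genes lower, and iron, endoplasmic reticulum and multidrug lists have over 30% higher.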

How the data were processed

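The authors deposited log2 values for 6 Affymetrix arrays, 1 per probe set, made with RMA per the submitters' processing notes. RMA removes background, equalises the arrays' distributions by quantiles and merges the probes of a set. The sources used here do not name its software or settings, and scans were not used. The table held 10928 probe sets: 213 controls, 1746 for S. pombe, 3470 with no gene, 1 with several genes and 5498 naming 1 S. cerevisiae gene, which gave 5449 genes. For the 47 genes with several probe sets the one with the highest mean was used. Gene names came from the platform table, with 12 symbols updated through the R64 assembly's annotation, used for names and neighbours only. Of the genes, 117 had a probe set that can hybridise several genes. Background was set at the 95th percentile of S. pombe probe sets on each array (highest 4.38).

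The 6 arrays were fitted together by limma 3.58.1 (R 4.3.3; lmFit and eBayes), with 1 mean for each group, 3 residual degrees of freedom and two-sided tests, and p-values were adjusted by Benjamini-Hochberg over all 5449 genes. Errors after ± are limma's standard errors, and 95% intervals use its moderated degrees of freedom. The number of arrays limits the precision. The fit was tested on simulated data.

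The genes, the 60 lists of textbook genes and the tests were chosen with earlier results of these data known. After values were seen, NPR1 was taken off the list of vacuolar hydrolases and MRP8 off that of mitochondrial ribosomal proteins, since neither belongs there. The named genes are the 15 largest differences in each direction among called genes whose arrays do not overlap, up to 2 called members of each list and direction, all members of lists of at most 10 genes and a fixed set; exceptions are said in the text or were named to account for a list's calls. Lists were described by counts and medians, without a test. Alternatives, 20 in all, changed 1 choice at a time: leaving out each array, quantile normalization, median centring, filters on low values, other uses of the probe sets, the 4 arrays alone, a stricter threshold, treat (a limma test against a minimum difference, here 0.5), a trend and robust variance, array weights, the replicate number as a block and the difference between 3' and 5' controls as a covariate. Differences of replicates correlated between groups by 0.25 to 0.43; with 2 arrays a group this does not show that the numbers pair the arrays. Leaving out either DMSO array gives the same test as the 4 arrays alone, so these alternatives are not separate checks. No outlier test was run, since each group has 2 arrays.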

Additional observations from a re-analysis of the deposited data

How the results depend on the processing

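Of 1022 calls, 508 higher and 514 lower, the fits that left out 1 array gave 96 to 2646, with 41 to 1243 higher and 53 to 1403 lower; of the 63 genes at 2-fold they gave 55 to 116, with 21 to 35 higher and 30 to 81 lower. The 4 arrays alone gave 397 (183 higher, 214 lower), an adjusted p under 0.01 gave 214 (92 and 122), array weights 528 (255 and 273) and the 3' to 5' covariate 1888 (989 and 899). Treat against 0.5 gave 40 (17 and 23), of which 38 at least 2-fold (16 and 22). With the genes of lowest mean level removed (1 in 3), a filter that tests fewer genes, 33 were at 2-fold (14 and 19). With the replicate number as a block 1510 genes were called (748 and 762) and 63 at 2-fold; the pairing is not shown by 2 arrays a group. Under the other 7 of the 20 alternatives each of these counts stayed within 1.5 times. No called named gene changed sign under any alternative it entered, while 735 of 3564 such values were no longer past the threshold. TSL1 differed by -0.04 (limma adjusted p = 0.921) and by 0.33 (0.0443) without CID 3528206 replicate 2, -0.41 (0.0427) without replicate 1 and -0.35 (0.00665) with the covariate; the cause was not tested.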

Other observations

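Of the 3470 probe sets that name no gene, 357 had a mean above background, and limma, fitted on these probe sets alone, called 14 of them, 6 higher after CID 3528206 than after rapamycin and 8 lower. Of the 63 genes that differed 2-fold, 1 pair called in the same direction, YLL053C and AQY2, are neighbours on the chromosome. The median level of the called genes was 10.48 for higher and 9.94 for lower ones, against 10.09 over all genes.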
